A study of Mus musculus with 10 samples.

Results

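Hair cells are the sensory cells of the cochlea, and 10 genes known as their markers were followed in the outer sulcus of hypothyroid and euthyroid mice. The members were the rows of the gene table whose symbol was Ocm, Slc26a5, Strc, Chrna10, Chrna9, Pou4f3, Gfi1, Otof, Tmc1 or Myo7a, and all 10 were found among 18725 genes. The tissue was the microdissected outer sulcus, the epithelium lateral to the organ of Corti, and the spiral ligament below it, from C57BL/6J mice at postnatal day 10. In the hypothyroid group the mothers drank water with methimazole (0.05%), with sodium perchlorate monohydrate (1.0%) and with sucrose (5.0%) from embryonic day 17 and through lactation, and in the euthyroid group they drank vehicle over the same time. Methimazole blocks thyroid hormone synthesis and perchlorate blocks iodide uptake. Each group had 5 RNA-seq libraries. The pups were thus treated through their mothers, and neither the litter nor the number of animals behind each library was stated.

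Outer hair cells change length with voltage and amplify sound, and inner hair cells pass the signal to the auditory nerve. Both carry a bundle of stereocilia with transduction channels at its tips, and both mature in the mouse after birth, while the cochlea depends on thyroid hormone. Hair cells lie in the organ of Corti, beside the outer sulcus and not in it.

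Library totals lay between 19781921 and 20063961 estimated counts in the euthyroid group and between 19298145 and 19407592 in the hypothyroid group. Values are CPM, a gene's counts scaled to a common library size with TMM factors. TMM scaling adjusts for library composition. In a library 1 count was worth about 0.0552 CPM in the euthyroid and 0.0472 CPM in the hypothyroid group. The quasi-likelihood test of edgeR was run over the 14862 genes with enough counts, and a gene was called at a Benjamini-Hochberg adjusted p under 0.05. Of those genes 71.8% were called, 37.7% higher and 34.1% lower in the hypothyroid libraries, and in 57.9% the groups did not overlap in CPM. A call by itself is thus common in these data. The labelled tissue was checked with 6 genes of the outer sulcus and ligament, of which Otor (log2 fold change 0.15, adjusted p = 0.109) was at 5479 ± 258 CPM (SD, n = 5) in the euthyroid and 6059.6 ± 797 CPM in the hypothyroid group, a difference that passed under some alternatives. Otos and Coch fell from 3906 ± 766 to 56.1 ± 20.7 CPM and from 2868 ± 660.0 to 261 ± 37.6 CPM, and Slc26a4 fell from 255 ± 23.5 to 121 ± 15.9 CPM. Kcnj16 fell from 353 ± 42.5 to 14.4 ± 2.22 CPM and Epyc from 3978 ± 220 to 1735 ± 235 CPM. The extraction text of the labels describes femoral head cartilage at postnatal day 22, while the other labels give the cochlea at postnatal day 10.

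Sequences upstream of a start site are shown for 2 members. Slc26a5 was the member with no count in the hypothyroid libraries and Tmc1 the tested member with no call. Each is the 250 bases before a start site of the gene, from RefSeq on GRCm38.p6, on the minus strand. The Slc26a5 window is chr5:21865605-21865854 and the Tmc1 window is chr19:20954203-20954452. The Tmc1 window adjoins the GENCODE M21 start at 20954202. It lies inside the RefSeq span of the gene, whose upstream end is at 21037126. Capitals mark a match to AGGTCA on either strand, the half-site bound by thyroid hormone and retinoid receptors.
Slc26a5: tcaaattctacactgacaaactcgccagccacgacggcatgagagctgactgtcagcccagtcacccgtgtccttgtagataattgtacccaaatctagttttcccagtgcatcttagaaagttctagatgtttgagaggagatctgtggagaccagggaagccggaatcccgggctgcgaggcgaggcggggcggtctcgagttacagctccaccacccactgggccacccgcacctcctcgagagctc
Tmc1: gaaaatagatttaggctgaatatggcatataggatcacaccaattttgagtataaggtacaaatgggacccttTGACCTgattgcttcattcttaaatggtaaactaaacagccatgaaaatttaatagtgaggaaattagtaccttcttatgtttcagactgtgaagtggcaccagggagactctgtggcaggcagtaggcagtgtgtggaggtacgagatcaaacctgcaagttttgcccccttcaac
Windows of 8 members were searched, some with more than 1 start site, for AGGTCA, for the E-box CAGNTG, a form bound by factors of the ATOH1 family, and for AATCAC, which holds the core bound by GFI1. No window of Otof or Pou4f3 was searched. Both strands were read, and a position matched on both counted once. AGGTCA was found only in the Tmc1 window, against 14.0% of 32851 such windows of all genes. CAGNTG was found in the windows of Strc, Chrna10 and Chrna9, with 2 matches each, and once in 1 of the windows of Gfi1, against 44.8% of all windows. AATCAC was in none of the searched windows, against 9.14% of all windows. The Ocm window lies upstream of the RefSeq start, which no GENCODE M21 transcript shares, so its lack of matches says nothing of the GENCODE start. Like that of Tmc1, the windows of Strc, Chrna10 and Chrna9 lie within the RefSeq spans of their genes. Each of them adjoins the start of a GENCODE M21 transcript, but other start sites of these genes were not searched. These matches describe letters only.

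In euthyroid tissue the markers were present in every library. Compared per length, in TPM as deposited, Ocm stood above the rest at 109 ± 48.0 (SD, n = 5), with its lowest library at 52.5 above the highest library of any other member. Myo7a followed at 3.98 ± 0.448 TPM, Slc26a5 at 3.60 ± 1.34 and Otof at 2.77 ± 1.25. Pou4f3 (1.94 ± 0.829), Chrna10 (1.91 ± 0.889), Strc (1.78 ± 0.849), Tmc1 (1.74 ± 0.538), Chrna9 (1.13 ± 0.4295) and Gfi1 (1.03 ± 0.5697) came after them in TPM. From Myo7a down, each gene's range over the 5 libraries overlapped that of the next in the order. In hypothyroid tissue the order was another one. Myo7a led at 11.4 ± 1.12 TPM, Tmc1 and Otof followed at 1.48 ± 0.292 and 1.41 ± 0.262 TPM, and the other 7 members were between 0 and 0.174 TPM on average.

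**Figure D1:**
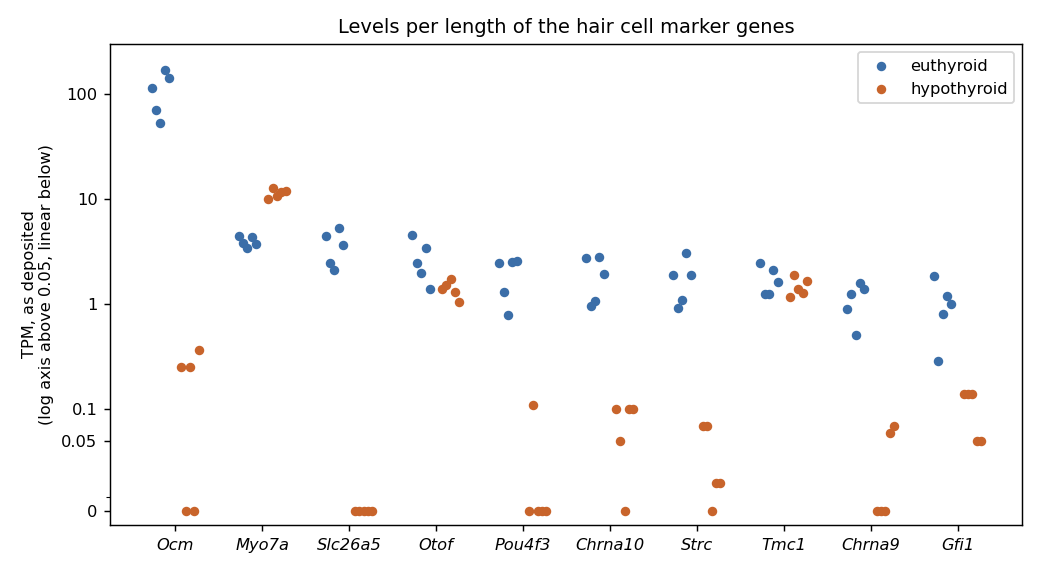
TPM of the 10 marker genes in each library, on a log axis above 0.05 and a linear one below, with euthyroid libraries in blue and hypothyroid libraries in orange. Ocm is at 52.5 or more in every euthyroid library, while in hypothyroid tissue only Myo7a, Tmc1 and Otof are above 1.

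Outer hair cell genes were nearly gone from the hypothyroid libraries. Ocm encodes oncomodulin, an EF-hand calcium-binding protein of outer hair cells, and on GRCm38 it lies on chromosome 5 from 144019804 to 144026670 in GENCODE M21. It had 561, 359, 265, 838 and 691 counts in euthyroid replicates 1 to 5 and 1, 0, 1, 0 and 2 in the hypothyroid ones. The lowest euthyroid library thus held more counts than all hypothyroid libraries together. Its level fell from 30.02 ± 13.3 to 0.0378 ± 0.0395 CPM (log2 fold change -9.41, SE 0.66, edgeR adjusted p = 7.59e-07). From the total counts, 2714 against 4, the gene was 794-fold lower, with a 95% counting interval of 309.9 to 2917.

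Slc26a5 encodes prestin, the motor protein of the outer hair cell's lateral membrane, and lies on chromosome 5 from 21810655 to 21865604. It had 160, 86, 74, 188 and 133 counts in the euthyroid libraries (7.08 ± 2.71 CPM) and 0 in each hypothyroid library (edgeR adjusted p = 3.32e-06). Against a limit of 3 counts over the 5 hypothyroid libraries, 641 counts make it at least 250.1-fold lower, and the exact 95% counting interval used for the other members has its lower end at 203-fold. Of all 10 members this was the one with no count in the hypothyroid group. The limit and the intervals of count ratios cover counting error only.

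Strc encodes stereocilin, which links the stereocilia of outer hair cells to each other and to the tectorial membrane. Counts were 88, 42, 50, 141 and 88 in euthyroid libraries and 3, 3, 0, 1 and 1 in hypothyroid ones. The groups lay far apart. In CPM it fell from 4.53 ± 2.23 to 0.0752 ± 0.0634 (log2 fold change -5.79, SE 0.52, edgeR adjusted p = 3.49e-07). Total counts of 409 against 8 gave a 59.9-fold difference, with an interval of 30.1 to 139.6.

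The receptor by which efferent nerve fibres inhibit outer hair cells is built of the subunits encoded by Chrna9 and Chrna10, and both genes were low in hypothyroid tissue. Chrna10 had 56, 19, 21, 55 and 40 counts in euthyroid and 2, 1, 0, 2 and 2 in hypothyroid libraries. It fell from 2.11 ± 0.983 to 0.0655 ± 0.0417 CPM (log2 fold change -4.87, SE 0.50, edgeR adjusted p = 5.94e-07). Its exons share 39.0% of their bases with Art1 on the opposite strand, and whether the libraries kept strand was not stated. Art1 itself had 48 counts in the euthyroid and 44 in the hypothyroid group (log2 fold change -0.35, edgeR adjusted p = 0.302). Chrna9 had 14, 18, 8, 25 and 22 counts against 0, 0, 0, 1 and 1, a total of 87 against 2. That is 50.9-fold lower, with a counting interval of 13.7 to 427. The groups did not overlap for either subunit gene.

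Ocm, Slc26a5, Strc and Chrna10 had under 10 counts in every hypothyroid library and passed the count filter through the euthyroid group alone, so a gene with their counts could pass it only by differing. In bulk tissue, fewer hair cells in the samples and less RNA of these genes per cell cannot be told apart.

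**Figure D2:**
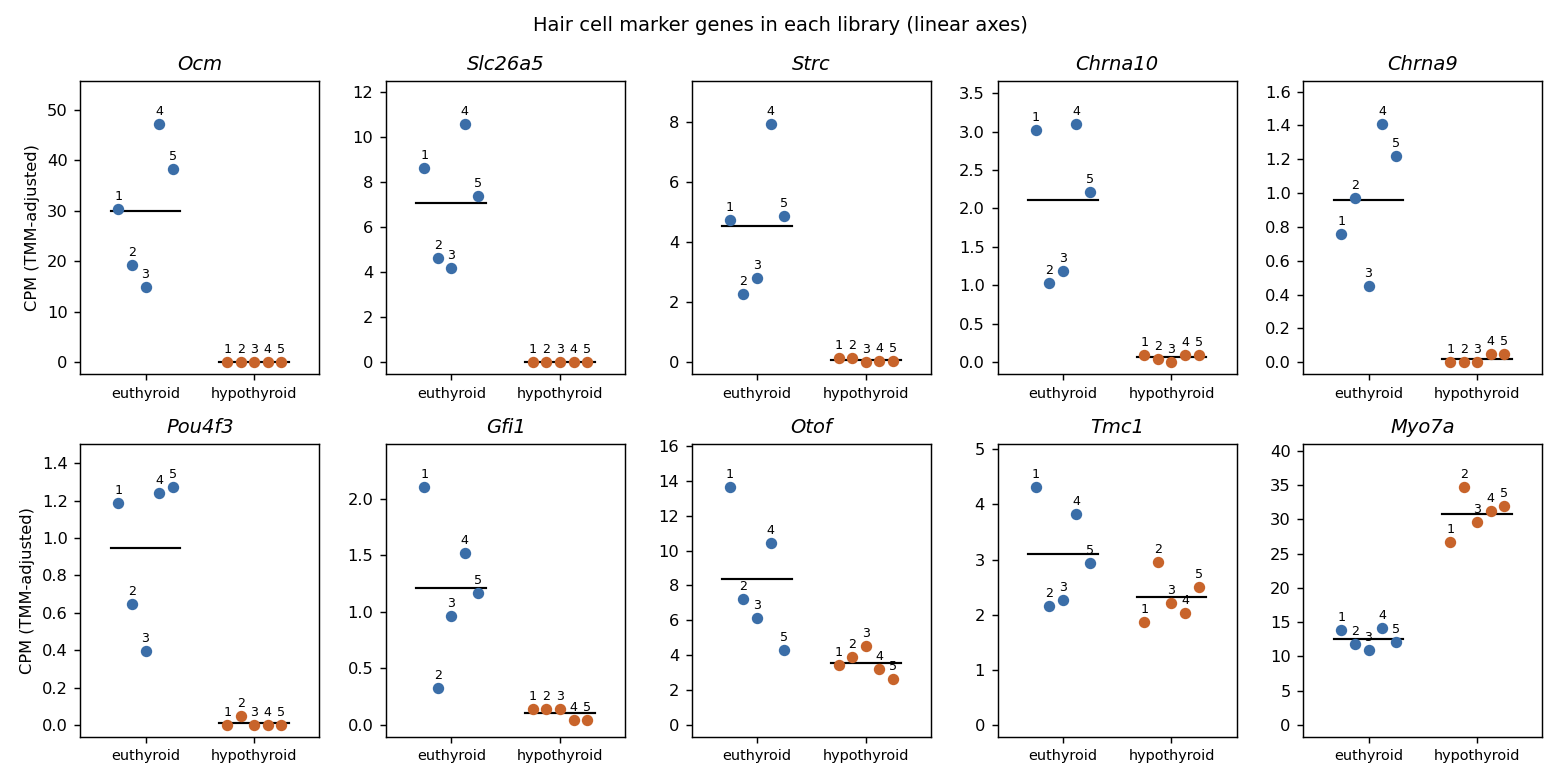
CPM of each marker gene in each library on linear axes, with 1 panel a gene, the replicate number above each point and a line at the group mean. The hypothyroid points of the first 7 genes lie at or near 0, Otof and Tmc1 overlap between the groups, and Myo7a lies between 26.6 and 34.8 in hypothyroid against 10.9 and 14.1 in euthyroid libraries.

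The transcription factor genes Pou4f3 and Gfi1 were low as well, at few counts in either group. Pou4f3, a POU-domain factor needed for hair cell differentiation and survival, had 22, 12, 7, 22 and 23 counts in euthyroid libraries and 1 count in all hypothyroid libraries together. From the totals of 86 and 1 it was 100.7-fold lower, and the counting interval of 17.6 to 4022 shows how loosely a single count fixes that size. Gfi1, a zinc-finger repressor also needed for hair cells to survive, had 39, 6, 17, 27 and 21 counts against 3, 3, 3, 1 and 1. Every hypothyroid library held at least 1 count of Gfi1, and its lowest euthyroid library held 6. The totals of 110 and 11 gave an 11.7-fold difference with an interval of 6.29 to 24.1.

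Chrna9, Pou4f3 and Gfi1 were under the count filter and were not among the 14862 genes tested. In a fit with no filter, over 18666 genes, edgeR's adjusted p was 5.18e-07 for Chrna9, 4.87e-07 for Pou4f3 and 1.06e-05 for Gfi1. With DESeq2 these adjusted p-values were 5.46e-08, 3.39e-09 and 3.55e-08. Atoh1, which starts hair cell formation in the embryo, had 0 counts in the euthyroid and 1 in the hypothyroid libraries.

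Otof and Tmc1 had at least 40 counts in every library of both groups. Otof encodes otoferlin, the calcium sensor for vesicle release at inner hair cell synapses. It had 253, 134, 109, 185 and 77 counts in the euthyroid libraries and 73, 82, 94, 70 and 56 in the hypothyroid ones. The groups overlapped, since euthyroid replicate 5, at 4.27 CPM, lay below hypothyroid replicate 3, at 4.53 CPM. Otof was 2.36-fold lower in the hypothyroid group, at 3.54 ± 0.714 against 8.35 ± 3.72 CPM (edgeR adjusted p = 0.00200, log2 fold change -1.24 with an SE of 0.28).

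Tmc1 encodes a pore-forming subunit of the mechanotransduction channel at the tips of stereocilia, in inner and outer hair cells. Its counts were 80, 40, 40, 68 and 53 in euthyroid and 40, 62, 46, 44 and 53 in hypothyroid libraries, so the groups overlapped over most of their range. The difference did not pass (3.10 ± 0.956 against 2.31 ± 0.425 CPM, log2 fold change -0.42, SE 0.21, edgeR adjusted p = 0.0804). Leaving out 1 library brought edgeR's adjusted p to 0.0272 (euthyroid replicate 2), 0.0381 (euthyroid replicate 3) or 0.0444 (hypothyroid replicate 2), and over all alternatives it lay between 0.0272 and 0.491. The same hypothyroid libraries with 245 counts of Tmc1 and 375 of Otof together held 4 of Ocm and 0 of Slc26a5.

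Myo7a rose. It encodes myosin VIIa, a motor of the upper tip-link density in the hair bundle, which is also known from other cells such as the retinal pigment epithelium. Its counts were 256, 219, 194, 251 and 217 in euthyroid and 569, 731, 613, 676 and 678 in hypothyroid libraries. Every hypothyroid library stood above every euthyroid one, and the level was 12.5 ± 1.38 against 30.8 ± 3.01 CPM, a 2.45-fold rise (edgeR adjusted p = 3.74e-09, log2 fold change 1.30 with an SE of 0.09). Among the other marker lists, 7 of 9 genes of melanocytes, the intermediate cells of the stria vascularis, were higher in the same libraries, and 2 were lower. Over all tested genes 37.7% were called higher and 34.1% lower. The 2 lower were Mitf, from 106 ± 22.4 to 49.3 ± 6.26 CPM, and Kcnj10. The summed level of the 9 genes was 667 to 884 CPM in euthyroid and 971 to 1819 CPM in hypothyroid libraries. None of the 9 was at 0, and their part in the Myo7a result was not tested.

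**Figure D3:**
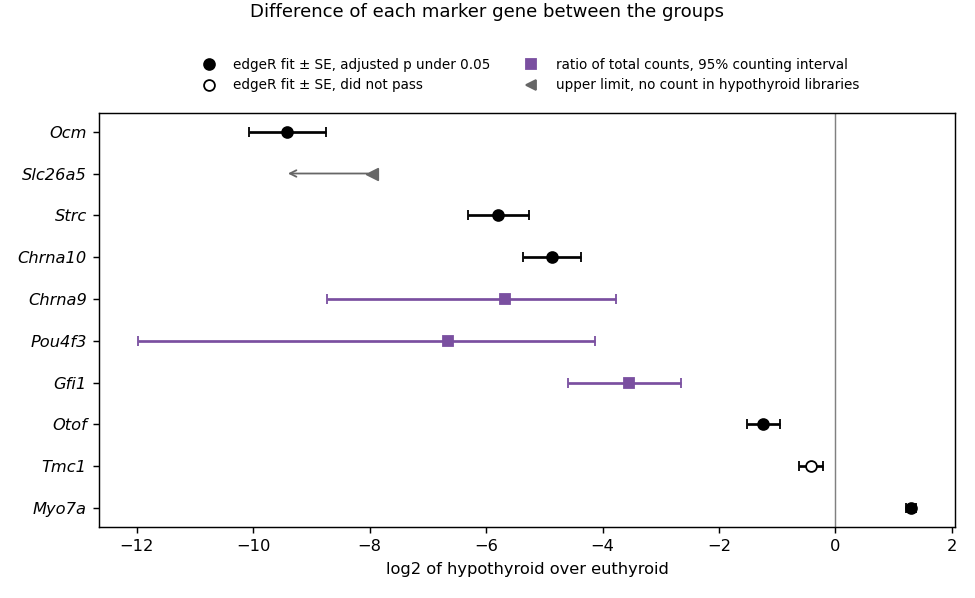
Difference of each marker gene on the log2 scale, hypothyroid over euthyroid, with circles for the edgeR fit and its SE, purple squares for the ratio of total counts and its 95% counting interval in the 3 genes under the filter, and a grey triangle for the limit of Slc26a5. Ocm lies at -9.41, Otof at -1.24 and Myo7a at 1.30, and the open circle of Tmc1 marks the difference that did not pass.

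Of the 10 members, 7 did not overlap between the groups and were lower in hypothyroid tissue, 1 did not overlap and was higher, and 2 overlapped. Over all tested genes 57.9% did not overlap, and 28.5% did so with the hypothyroid libraries lower. Of the 7 lower members, 3 were under the filter and so outside these shares, and 4 passed it through the euthyroid group alone. Nothing is read from setting them beside these shares. Of the 7 members tested, 5 fell, 1 rose and 1 did not pass, and since 4 of those that fell passed the filter through the euthyroid group alone, nothing is read from that count. All tested genes had a median log2 fold change of 0.04, or 0.30 with library sizes alone in place of TMM scaling. The 7 tested members kept their directions under both scalings.

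The markers varied among the euthyroid libraries. The coefficient of variation in CPM was 44.2% for Ocm, 38.2% for Slc26a5, 49.2% for Strc, 46.6% for Chrna10 and 44.6% for Otof, where counting alone gives 4.29%, 8.83%, 11.1%, 16.2% and 8.12%. For Chrna9 it was 39.2% (24.0% from counting), for Pou4f3 42.4% (24.1%), for Gfi1 54.5% (21.3%), for Tmc1 30.8% (13.3%) and for Myo7a 10.97% (6.63%). The ratio to counting error ran from 1.64 for Chrna9 to 10.3 for Ocm and was above 1 in all 10 members, as it was in 80.8% of all tested genes, whose median ratio was 1.57. Replicates 2 and 3 formed the lowest pair in 8 of the 10 members, a pattern held by 9.34% of all tested genes, and replicate 4 was highest in 6, against 18.2% of all genes. Both patterns were picked after the values were seen. The exceptions to the first were Chrna9, lowest in replicates 1 and 3, and Otof, lowest in replicates 3 and 5. Otof, Tmc1 and Gfi1 were highest in replicate 1, at 164%, 139% and 173% of their euthyroid means, where Chrna10 was at 143%, Ocm at 101% and Chrna9 at 78.7%. The genes of a library share its dissection and depth, so these are not independent readings.

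Genes of the neighbouring supporting cells of the organ of Corti were read in the same libraries. From a list of 14 genes 13 could be tested, with 10 lower, 2 higher, 1 without a call and a median log2 fold change of -1.12. Of the 10 lower, Ceacam16 had 6, 1, 6, 4 and 9 counts in the hypothyroid libraries. It passed the filter through the euthyroid group alone. Over all tested genes 34.1% were called lower and 37.7% higher. The 2 higher were Prox1, from 1.90 ± 0.323 to 2.74 ± 0.614 CPM, and Bace2, from 79.4 ± 1.37 to 115 ± 14.0 CPM. Rorb fell from 19.5 ± 1.97 to 0.837 ± 0.325 CPM, Fabp7 from 96.2 ± 8.82 to 9.45 ± 1.43 CPM, and the glutamate transporter gene Slc1a3 from 291 ± 30.3 to 139.6 ± 4.53 CPM. Sox2, a progenitor and supporting cell factor under the count filter, had 190 counts against 25. The summed level of the list was 747 to 825 CPM in euthyroid and 366 to 425 CPM in hypothyroid libraries, and none of its genes was at 0 in the hypothyroid group. Tectb, the gene of beta-tectorin, had 1235 counts in euthyroid replicate 1 against 114 to 192 in the other euthyroid libraries. Without that library all 6 calls among the members stood. How much of the hair cell result goes with the amount of organ of Corti in each sample was not tested.

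**Figure D4:**
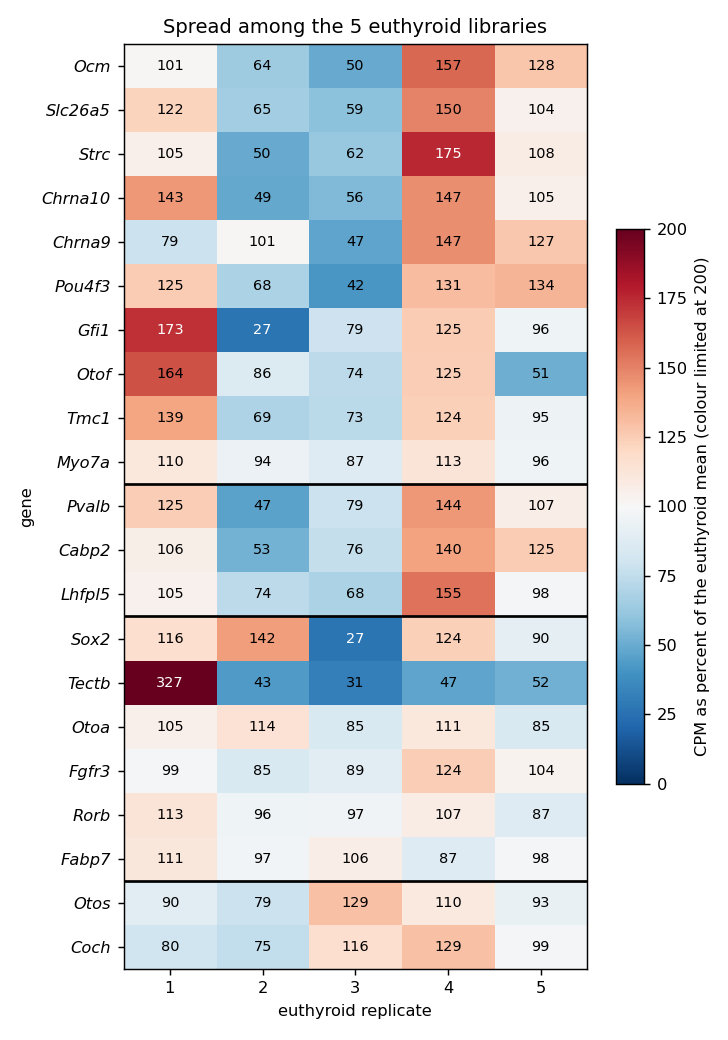
CPM of each gene in each euthyroid library as a percent of its mean over the 5, with the 10 members at the top, then further hair cell genes, supporting cell genes and ligament genes between the black lines. Ocm runs from 49.8 in replicate 3 to 157 in replicate 4, Rorb only from 87.4 to 113, and Tectb reaches 327 in replicate 1.

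Beyond the markers, 43 other genes of hair cells were read by role. The test called 22 of 32 lower and 3 higher, left 7 uncalled and had a median log2 fold change of -0.72. Another 11 were under the filter. Over all tested genes 34.1% were called lower and 37.7% higher, and the splits by role below stand beside these shares. Of the 22 lower, 8 were so by at least 4-fold and 8 by less than 2-fold. Of the former, 7 had under 10 counts in every hypothyroid library and, like 4 of the markers, passed the filter through the euthyroid group alone, Lhfpl5, Pvalb, Cabp2 and Smpx among them. Of 7 genes of transduction and tip links 6 fell and 1 rose. The tip-link cadherin gene Pcdh15 fell 3.19-fold, from 6.25 ± 1.19 to 1.95 ± 0.328 CPM. Lhfpl5, whose product joins the transduction channel to the tip link, had 112 counts in the euthyroid and 8 in the hypothyroid group. Tmie, of the same channel complex, rose 3.34-fold, from 11.4 ± 1.22 to 38.2 ± 3.87 CPM (edgeR adjusted p = 1.25e-10).

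Bundle genes split, with 8 of 12 lower, 2 higher and 2 not passing. Myo6, a myosin at the base of stereocilia that many other cells express, fell 1.51-fold from 341 ± 24.9 to 225 ± 16.8 CPM. Myo3b, a myosin of stereocilia tips, rose 2.65-fold, and Ptprq, a phosphatase of the stereocilia base, rose 1.94-fold. Xirp2 and Grxcr1, both genes of stereocilia, were under the filter, with 41 and 23 counts in the euthyroid libraries and 0 in the hypothyroid ones.

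Among 6 genes of calcium binding and the synapse, 4 fell and 2 did not pass. Pvalb, the gene of parvalbumin, a relative of oncomodulin, had 48, 18, 29, 53 and 40 counts in euthyroid and 0, 0, 2, 0 and 0 in hypothyroid libraries (edgeR adjusted p = 1.59e-07). Cabp2, a modulator of hair cell calcium channels, had 120 counts against 4 (edgeR adjusted p = 4.14e-07). Slc17a8 encodes VGLUT3, which loads glutamate into vesicles of inner hair cells, and it stayed at 4.66 ± 1.37 and 4.31 ± 0.777 CPM without passing. Of 3 tested potassium channel genes 2 fell and 1 did not pass. Neither of the 2 tested regulators, Ikzf2 and Hes6, passed. Of the regulators under the filter, Lhx3 had 27 counts in the euthyroid and 1 in the hypothyroid group. Barhl1 had 35 against 4, Insm1 13 against 2 and Atoh1 0 against 1. Smpx, a small muscle protein gene also active in hair cells, fell 12.8-fold, from 3.71 ± 1.31 to 0.284 ± 0.102 CPM.

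**Figure D5:**
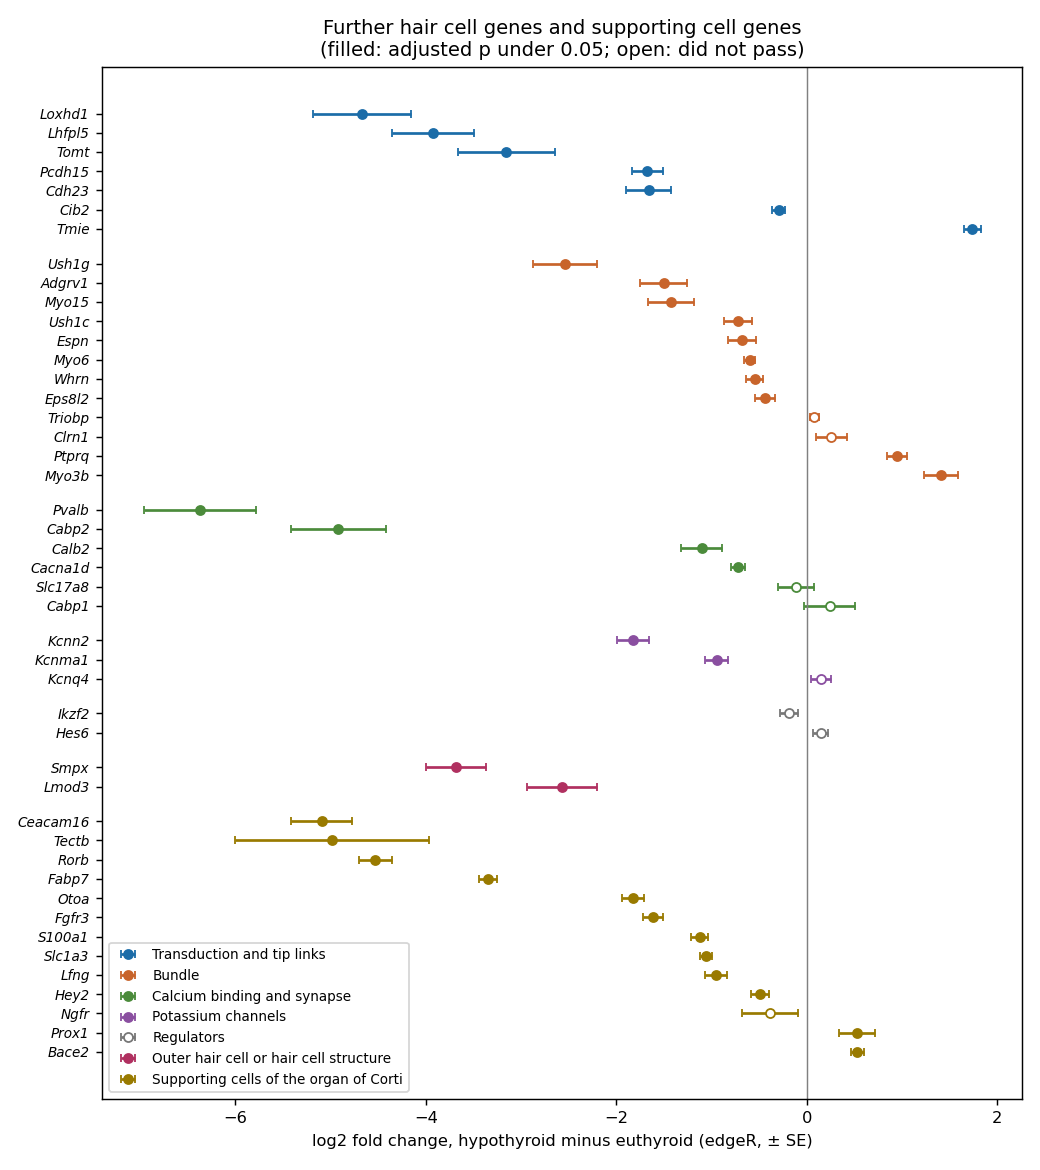
Log2 fold change with SE from edgeR for the 32 tested further hair cell genes, coloured by role, and for 13 supporting cell genes, with filled points for those that passed. Pvalb, Cabp2 and Loxhd1 lie farthest to the left among the hair cell genes, and Tmie, Myo3b and Ptprq lie to the right of 0.

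The genes most like the summed outer hair cell markers in their distribution over the libraries were sought among genes with at least 1 CPM in euthyroid tissue. The measure was the overlap between the shares of a gene's CPM falling in each of the 10 libraries and those of the summed CPM of Ocm, Slc26a5, Strc and Chrna10, where 100% means identical shares. Ocm gave 68.6% of that summed CPM in the euthyroid libraries, so the measure is mostly likeness to Ocm. A gene spread evenly over the euthyroid libraries and at 0 in the hypothyroid ones would score 82.9%. Ppp1r17 and Gm5737 were nearest, at 95.4% each, with 152 against 2 and 796 against 6 counts. Cabp2 (92.7%), Ap3b2 (91.98%), Umodl1 (91.6%), Lrrc10b (91.2%), Lhfpl5 (90.7%), Pvalb (90.6%), Slc47a2 (90.4%) and Ccl19 (88.8%) came next. Cabp2, Lhfpl5 and Pvalb are on the list of further hair cell genes. Umodl1 was the most abundant of the 10, at 85.1 ± 34.0 CPM in euthyroid and 0.159 ± 0.153 CPM in hypothyroid libraries. By the same measure Pou4f3 was at 91.9%, Chrna9 at 90.01%, Gfi1 at 77.8%, Otof at 68.9%, Tmc1 at 57.7% and Myo7a at 29.3%.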

How the data were processed

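RNA was measured by polyadenylated RNA sequencing, as single-end reads of 50 bases per the labels' protocols. The submitters' processing notes name RSEM 1.2.12, Bowtie2 2.2.5, HISAT2 2.0.4 and the build GRCm38.p6 without their roles. The authors deposited estimated counts per gene and library, some of them fractional, and TPM values, scaled for length and library. Another 28 columns of the table were not used.

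Counts were rounded and filtered with filterByExpr (minimum count 10), scaled with TMM factors and tested with edgeR 4.0.16 (robust two-sided quasi-likelihood fit on group alone) in R 4.3.3, with adjustment over all genes tested. SE was taken as |log2 fold change| over the root of F. On simulated counts of 14762 genes, with 99 changed 2-fold and 100 changed 4-fold, the test recovered 97.0% and 100% of these changes. In the data 71.8% of tested genes were called, so the simulation does not show how the test does where so many differ. Intervals of count ratios are exact binomial ones at 95%, and the limit for 0 counts is 3 counts over the group. Alternatives were library sizes alone, upper quartile factors, DESeq2 1.42.0 and its size factors, no filter, a minimum count of 30, a replicate block and leaving out each library. Figures were drawn with Python 3.11.15 and matplotlib 3.10.9.

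The members and lists were chosen with earlier results of these data known. Named genes were all members; of the further hair cell genes, up to 5 that rose (only 3 did) and 5 that fell with the smallest adjusted p, and those with 0 counts in 1 group; the 3 of each other list with the smallest adjusted p; 4 tissue genes; and the 10 nearest in distribution. Slc17a8, Ikzf2, Hes6, Lhx3, Barhl1, Insm1, Sox2, Prox1, Bace2, Tectb, Mitf, Art1 and Loxhd1 were added for their values or place. Ceacam16, Kcnj16, Epyc, Nefh, Nefl, Snap25 and Prph were added likewise. The labels do not say that libraries came from separate animals, so p-values measure only the spread among these libraries. Over 20 pairs within groups, the chi-square per gene was 5.41 or more, above sampling noise, so no library was counted as a duplicate. Members were checked for shared exons against GENCODE M21.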

Additional observations from a re-analysis of the deposited data

Results flagged for a closer look

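Within each group of 5 libraries, the gap of the highest or lowest library to its neighbour was set against the group's range, with a limit of 0.71. Over 93 such groups of the genes examined 9 passed the limit. By chance it passes about 1 in 20 groups of normally distributed values. A group with counts in only 1 library always passes it, so nothing is read from the 9. Among the markers only Pou4f3 passed, with its single count in hypothyroid replicate 2 (0.0475 CPM) and 0 elsewhere in that group. Pvalb likewise had counts in hypothyroid replicate 3 alone (0.0964 CPM). That library was also the highest of its group for Tubb3 (2.41 CPM), a neuronal tubulin gene, and Bglap (1.64 CPM), a bone gene. Tectb stood at 66.7 CPM in euthyroid replicate 1. The others were Kcnj10 at 195 CPM in euthyroid replicate 4, Pmel at 19.1 CPM in euthyroid replicate 2, Bglap at 137 CPM in euthyroid replicate 5, and Coch at 196 CPM as the lowest hypothyroid value, in replicate 4.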

How the results depend on the processing

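The 7 tested markers kept their direction in every alternative in which they were tested, and the calls of Ocm, Slc26a5, Strc, Chrna10, Otof and Myo7a stood in each of these; Chrna10 was not tested at a minimum count of 30. With no filter and with DESeq2, which test all 10 markers, 8 were lower. Leaving out a library gave 6 to 10 called and 5 to 9 lower, the higher counts where the filter admitted 8 to 10 markers. Here 8 were lower without euthyroid replicate 3 or without hypothyroid replicate 1, 3, 4 or 5, and 9 without hypothyroid replicate 2. With library sizes alone 8650 genes were higher and 2928 lower over all genes (74.7% of calls higher, against 52.5% as reported), and 7 further hair cell genes were higher, or 6 with upper quartile factors, against 3. Of supporting cell genes 1 to 2 were higher without single libraries, 1 of them without euthyroid replicate 2 or 3 or hypothyroid replicate 5. Otor was called higher with library sizes alone (log2 fold change 0.41, edgeR adjusted p = 0.000158), with upper quartile factors (0.26, 0.00902) and without hypothyroid replicate 2 (0.19, 0.0441) or 4 (0.19, 0.0342). The red blood cell genes Hbb-bs, Alas2 and Hba-a1 did not pass, but Alas2 did without euthyroid replicate 1 (-0.40, edgeR adjusted p = 0.0210). With library sizes alone Hbb-bs and Alas2 turned to log2 fold changes of 0.10 and 0.014, and Hba-a1, at 0.05 as reported, ranged from -0.083 (without euthyroid replicate 1) to 0.14 without single libraries. The causes of these turns were not tested. The replicate block gave 10392 calls against 10667 and left 6 markers called. Libraries of the same number had correlated deviations of -0.0774 to 0.108, and 1 of 5 numbers correlated best with its own, so the numbers were not taken as pairs. At these depths the Pou4f3 and Chrna9 ratios rest on 1 and 2 hypothyroid counts.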

Other observations

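Genes listed for spiral ganglion neurons did not share one direction. Of 4 tested, 3 rose and 1 fell, where 37.7% of all tested genes were called higher and 34.1% lower. Nefh, 1 of the 3, had 7, 9, 3, 4 and 4 counts in the euthyroid libraries. It passed the filter through the hypothyroid group alone. Another 3 were under the filter, with euthyroid against hypothyroid totals for Nefl (39 against 9), Snap25 (38 against 36) and Prph (29 against 71). Syt1, a synaptic vesicle gene, rose from 14.8 ± 2.44 to 48.7 ± 5.24 CPM (SD, n = 5 each) and Gap43, a gene of growing axons, from 2.03 ± 0.102 to 6.05 ± 1.34 CPM. Tubb3 fell from 12.2 ± 2.19 to 0.698 ± 0.969 CPM. The 3 bone genes fell, Ibsp from 763 ± 128 to 12.3 ± 5.07 CPM, Dmp1 from 203 ± 43.1 to 11.2 ± 2.28 CPM and Bglap from 87.8 ± 28.2 to 0.394 ± 0.706 CPM. Among melanocyte genes, Pmel rose from 15.1 ± 2.26 to 141 ± 45.7 CPM and Gpr143 from 1.88 ± 0.197 to 5.93 ± 1.55 CPM, while Kcnj10 fell from 168 ± 15.96 to 29.98 ± 6.65 CPM.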
